A study of Mus musculus with 24 samples.

Results

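The transcripts described here are 39 genes whose products are typical of macrophages and monocytes. They were taken by symbol from a table of 17111 genes, and all 39 had a row. They were measured by bulk RNA sequencing of mouse muscle stem cells, which build new fibres after damage and depend on Pax7, in 24 libraries that fall into 6 groups of 4. The groups are WT (labelled L2A-WT) and KO (labelled L2A-Pax7CreER), each uninjured (day 0), or 1 or 4 days after an intramuscular injection of 50 µL of 10 µM cardiotoxin, a venom toxin that kills muscle fibres. In the KO groups the title of the series and the labels point to a Cre recombinase, driven by Pax7 and inducible, that targets Lamp2a, the splice form of Lamp2 whose protein is the lysosomal receptor of chaperone-mediated autophagy. The labels name no control with the Cre and an intact Lamp2a gene, so effects of the Cre and of Lamp2a loss cannot be told apart. The labels give no ages, name a sorting buffer but no gate, and are silent on whether each library is a different animal. The p-values therefore measure only the spread between these libraries, which may be technical.

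Macrophages are the phagocytes of tissue. In muscle, blood monocytes that carry Ccr2 and Ly6c2 enter after injury, become macrophages, engulf the remains of dead fibres, and release factors that act on muscle stem cells and on fibroblasts. The cells sense debris through scavenger and Fc receptors, digest it in lysosomes and show peptides from it on MHC class II proteins. Several of the 39 genes are not exclusive to them: Ptprc, Coro1a, Laptm5, Lcp1 and Fcer1g are used across blood cells, Pf4 also by platelets, Cd36 also by endothelium and fat cells, Cd68 at low level by many cells with lysosomes, and Apoe and Spp1 by many tissues.

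Values are normalised read counts, in which a count of 0 appears as 0.0208 to 0.0457 depending on the library. Libraries held 11.6 to 22.5 M counted reads, and 3 counts corresponded to values between 0.145 and 0.32, a limit that covers counting error only. Fold changes are differences of log2(value + 1), so those of transcripts with few reads come out too small, and stand with the standard error of the limma model over all 24 libraries. A gene was called when its Benjamini-Hochberg adjusted p from limma, over the 16985 genes tested, was under 0.05. Lamp2, counted over all its splice forms, had a mean of 209 in the WT and 222 in the KO libraries of day 4 (log2 difference 0.06 ± 0.16, limma, adjusted p = 0.981), which checks neither the genotype nor the splice form. The 12 muscle stem cell markers were present in every group, with a median summed level of 3007 in WT and 3046 in KO at day 0 and of 1265 and 1275 at day 4.

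With Apoe left out, the summed level of the macrophage and monocyte transcripts was low at days 0 and 1 and high at day 4 in both genotypes. The sum of the 38 transcripts lay between 55.6 and 124 in the WT libraries and between 38.8 and 75.9 in the KO libraries at day 0. At day 1 it lay between 83.1 and 124 in WT and between 65.2 and 136 in KO. At day 4 it lay between 3206 and 4076 in WT and between 2630 and 2835 in KO, so that each day 4 library stood above each library of the earlier days. Apoe alone gave most of the sum before day 4. With it, the median sum was 1769 in WT and 1960 in KO at day 0, 565 and 1205 at day 1, and 3985 and 3161 at day 4. At day 4 the 39 transcripts made up 0.450% to 0.614% of all normalised signal in WT libraries and 0.252% to 0.286% in KO libraries. These shares lay further apart between genotypes than the summed levels did. The signal of all genes together, by which the sum is divided, was larger in the KO libraries of that day. The difference in share is therefore not a measure of the 39 transcripts alone. In bulk samples, fewer cells of a type and less RNA per cell cannot be told apart.

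**Figure D1:**
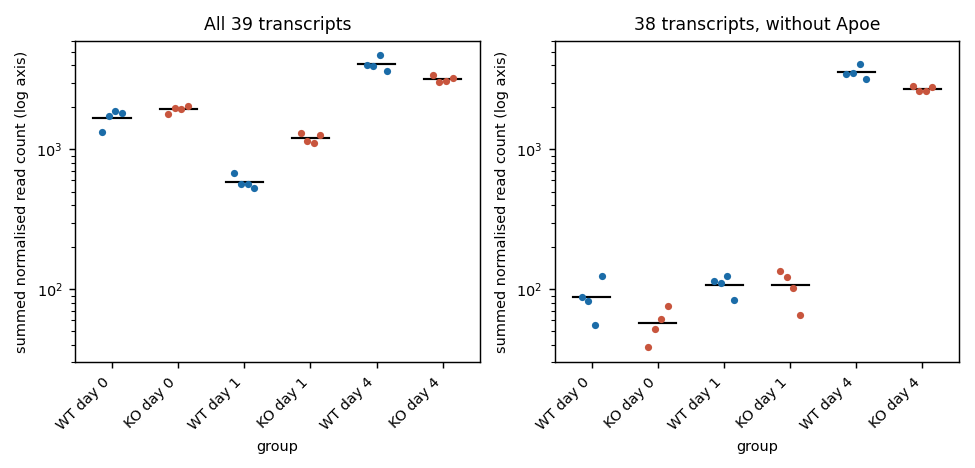
Summed normalised read count (log axis) of all 39 transcripts (left) and of the 38 without Apoe (right) in each of the 24 libraries, by group; points are libraries and lines are means of 4, with WT in blue and KO in red. Without Apoe, the day 4 libraries stand between 2630 and 4076 and all others at or below 136.

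The number of transcripts present followed the same order. Between 6 and 11 of the 39 reached a value of 1 in a day 0 library and between 7 and 16 in a day 1 library. All 39 reached it in each WT library at day 4, and 35 to 37 in each KO library. Of the 39, 13 would have passed the filter on low values (at least 1 in at least 4 libraries) from the 16 libraries of days 0 and 1 alone, and 26 passed it through their day 4 libraries, so a difference between day 4 and the earlier days was built into those 26. Some transcripts had no read in any of the 4 libraries of a group. This held for Ccr2 in WT at day 0, for Ccr2, Msr1, Spi1 and Arg1 in KO at day 0, and for Fcgr1, Ccr2, Cx3cr1, Msr1 and Ncf1 in KO at day 1. For these, a value of up to 0.32 at day 0 and 0.194 at day 1 is allowed by the counts.

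**Figure D2:**
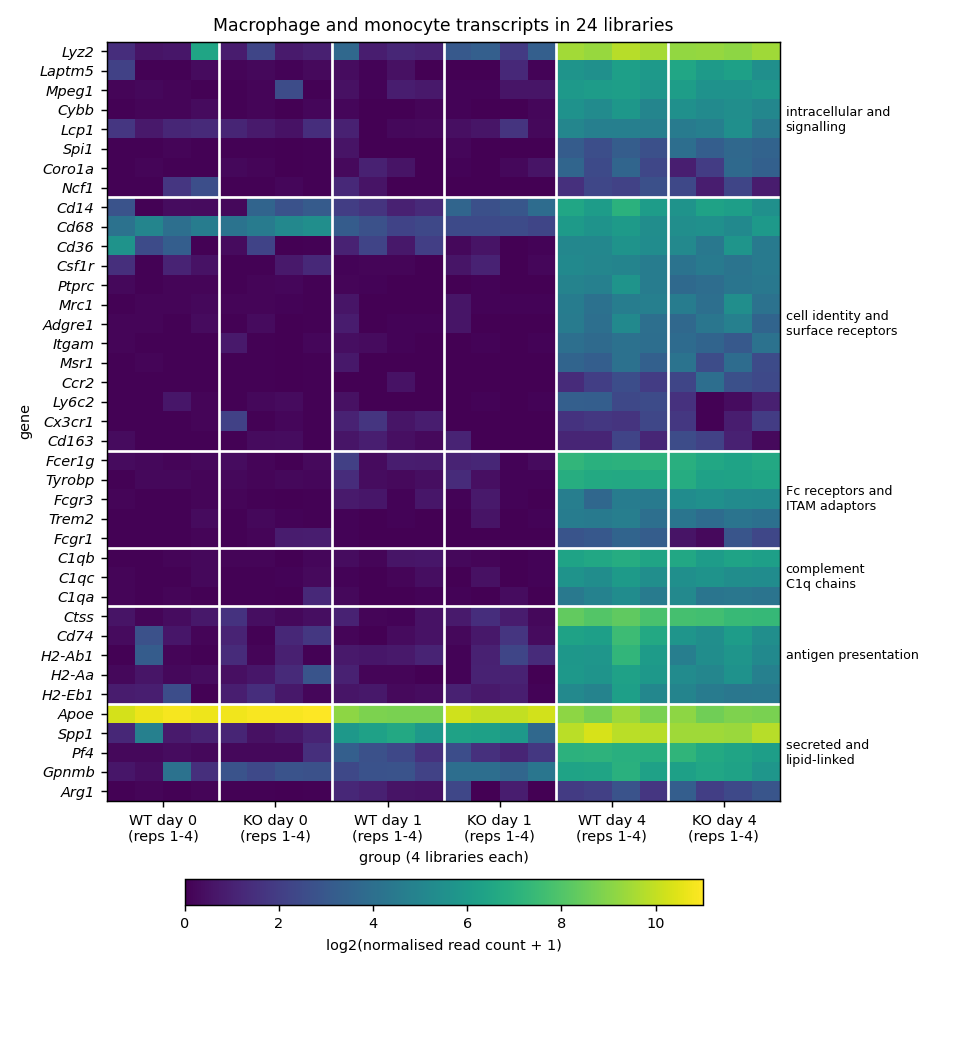
Level of each of the 39 transcripts (rows, grouped by role) in each of the 24 libraries (columns, 4 per group, replicates 1 to 4 from left to right), as log2 of the normalised read count plus 1. The day 4 columns are bright for nearly all rows, while Apoe is bright in every column and Cd68, Cd14, Gpnmb and Spp1 show signal in several libraries before day 4.

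In WT cells 37 of the 39 transcripts were higher at day 4 than at day 0 and 1, Apoe, was lower, where 25.7% of the genes tested were higher and 18.9% lower. A rise was built into the 26 transcripts that passed the filter through their day 4 libraries. Counts, medians and separations at day 4 against earlier days are therefore not a like comparison with those of all genes. The median of the 39 log2 changes was 4.34, against 0.23 for all genes. In 36 of them each day 4 library stood above each day 0 library and in 1, Apoe, below, which held for 21.7% and 17.3% of the genes tested. Ncf1, a subunit of the phagocyte oxidase, was the one not called (log2 change 1.06 ± 0.48, limma, adjusted p = 0.0751), and it was called without WT day 0 replicate 3 (adjusted p = 0.049) or replicate 4 (adjusted p = 0.00613), the 2 day 0 libraries in which it had reads. Against day 1, 36 transcripts were higher and 0 lower, where 27.8% of the genes tested were higher and 22.6% lower. Beside that 0, limma had 0 lower at an unadjusted p under 0.05 and edgeR and DESeq2 called 0. The libraries of days 4 and 1 did not overlap for 37, all higher at day 4 (34% of the genes tested, with 28.4% lower). The call of Cd163 against day 0 was lost with quantile normalization (adjusted p = 0.279). Those of Ncf1 and Arg1 against day 1 were lost with edgeR (adjusted p = 0.145 and 0.175) and DESeq2 (adjusted p = 0.133 and 0.121). Quantile normalization lost both as well (adjusted p = 0.0843 and 0.299).

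In KO cells 35 transcripts were higher at day 4 than at day 0 and Apoe was lower, where 22.3% of the genes tested were higher and 18.2% lower. The limit set by the filter applies to these counts too. The median log2 change was 3.98, against 0.18 for all genes. The groups did not overlap for 33 higher transcripts and for Apoe, where 14.7% of the genes tested did so higher and 14.2% lower. Cd68, Cx3cr1 and Ly6c2 were not called. Cx3cr1 was called without KO day 0 replicate 1, its highest day 0 library (adjusted p = 0.0195), and Ly6c2 without KO day 4 replicate 2, its lowest day 4 library (adjusted p = 0.0366). Against day 1, 37 were higher and Apoe was lower, where 26.2% of the genes tested were higher and 23.4% lower, and Ly6c2 was not called (limma, adjusted p = 0.0621). The groups did not overlap for 35 higher transcripts and for Apoe, where 26.2% and 23.9% of the genes tested did so. These comparisons share their day 4 libraries. Among the KO calls, Ncf1 against day 0 was lost without KO day 4 replicate 1 (adjusted p = 0.0512), Cd163 against day 1 without that library (adjusted p = 0.0617), and Cx3cr1 against day 1 without it or without replicate 4 (adjusted p = 0.0873 and 0.1003). With edgeR Cd163 was lost against day 0 (adjusted p = 0.0604) and day 1 (adjusted p = 0.116). Arg1 against day 1 was lost with edgeR and DESeq2 (adjusted p = 0.161 and 0.0853). Ncf1 and Cd163 against day 0 were lost with library weights (adjusted p = 0.0763 and 0.118). Quantile normalization lost Ncf1 and Cd163 against both days and Cx3cr1 against day 1 (adjusted p between 0.0926 and 0.155).

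Lyz2, which encodes lysozyme, stood at 714, 632, 896 and 741 in the 4 WT libraries at day 4 and at 602, 603, 555 and 682 in the KO libraries. At day 0 it stood at 1.69, 0.474, 0.577 and 86.5 in WT and between 0.745 and 3.97 in KO, so that WT day 0 replicate 4 stood far above the other day 0 libraries. Lyz2 rose by 7.26 ± 0.84 on the log2 scale in WT (limma, adjusted p = 1.64e-07; 8.65 without that library) and by 8.03 ± 0.84 in KO (limma, adjusted p = 3.71e-08). Ctss encodes cathepsin S, a protease that trims the invariant chain in antigen-presenting cells. It stood at 332, 265, 318 and 227 in WT and at 213, 202, 170.0 and 166 in KO at day 4, and at or below 2.02 in each day 0 library. Its rise was 7.70 ± 0.35 in WT (limma, adjusted p = 9.04e-15) and 6.89 ± 0.35 in KO (limma, adjusted p = 1.04e-13).

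Spp1, which encodes osteopontin, a secreted adhesion protein, stood at 937, 1292, 935 and 895 in WT and at 696, 688, 653 and 911 in KO at day 4. At day 0 it stood at 1.34, 26.8, 0.731 and 1.10 in WT and between 0.394 and 1.23 in KO. The day 4 and day 0 libraries did not overlap in either genotype, and WT day 0 replicate 2 stood apart within its group. Spp1 rose by 8.0 ± 0.60 in WT (8.94 without that library) and by 8.65 ± 0.60 in KO (limma, adjusted p = 1.02e-10 and 2.95e-11). Gpnmb, a lysosomal and surface glycoprotein of macrophages that digest lipid-rich debris, had a mean of 93.1 ± 22.8 in the WT and 75.0 ± 15.7 in the KO libraries of day 4 (SD, n = 4, as for all means here), and rose by 4.85 ± 0.50 in WT (5.67 without WT day 0 replicate 3) and by 3.53 ± 0.50 in KO. Pf4, a chemokine of macrophages and platelets, averaged 127 ± 7.60 and 101 ± 31.8 and rose by 6.74 ± 0.39 and 6.07 ± 0.39. Arg1, an enzyme that splits arginine, was low even so, at 3.59 ± 1.65 and 5.66 ± 2.45.

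All 5 genes of the Fc receptor and adaptor group were higher at day 4 than at day 0 in both genotypes, where 25.7% (WT) and 22.3% (KO) of the genes tested were higher. Fcer1g and Tyrobp, adaptors that carry the signalling motif for receptors without one, rose by 6.87 ± 0.36 and 6.55 ± 0.34 in WT and by 6.42 ± 0.36 and 6.28 ± 0.34 in KO. Their day 4 means in WT and KO were 137 ± 10.5 and 99.3 ± 16.5 for Fcer1g, and for Tyrobp 105 ± 7.27 and 89.1 ± 14.7. Trem2, a lipid-sensing receptor that signals through Tyrobp, averaged 21.3 ± 4.35 and 16.5 ± 2.06. Of the activating Fc receptors for IgG, Fcgr3 was higher in both genotypes, and Fcgr1, which binds single IgG molecules tightly, rose by 3.09 ± 0.40 in WT (limma, adjusted p = 1.11e-06) and by 1.05 ± 0.40 in KO (limma, adjusted p = 0.0416). The call for Fcgr1 in KO was lost without KO day 0 replicate 1 or 2 or KO day 4 replicate 3 or 4 (adjusted p between 0.0977 and 0.209), and with quantile normalization, library weights, only the groups compared, edgeR and DESeq2 (adjusted p between 0.0769 and 0.235).

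The 3 chains of complement C1q, the protein that tags dying cells and immune complexes for uptake, moved alike. C1qb stood at 82.4, 96.1, 112 and 85.3 in WT and at 96.3, 66.5, 81.7 and 73.2 in KO at day 4, and at or below 0.166 in each day 0 library. C1qa, C1qb and C1qc rose by 4.72 to 6.44 in WT and by 4.16 to 6.19 in KO. The 5 genes of antigen presentation, Cd74 (the invariant chain), H2-Aa, H2-Ab1 and H2-Eb1 (chains of MHC class II) and Ctss, were all higher at day 4 in both genotypes, by 4.25 to 7.70 in WT and by 3.75 to 6.89 in KO. In the same comparisons 25.7% of the genes tested were higher in WT and 22.3% in KO. Within WT at day 4 the antigen presentation genes were uneven. H2-Ab1 stood at 56.2, 54.6, 149 and 64.7, and replicate 3 was the highest library also for H2-Aa, H2-Eb1 and Cd74. At day 0, reads of Cd74 and H2-Ab1 lay mostly in WT replicate 2, and without it their rises in WT were 6.31 and 6.14 in place of 5.72 ± 0.50 and 5.36 ± 0.58.

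Among the 13 genes of cell identity and surface receptors, all 13 were higher at day 4 than at day 0 in WT and 10 in KO. Of all genes tested, 25.7% were higher in WT and 22.3% in KO. Ptprc, which encodes the pan-leukocyte protein CD45, stood at 29.1, 26.7, 51.3 and 23.9 in WT and at 12.4, 14.2, 18.6 and 20.3 in KO at day 4, and at or below 0.172 in each library of days 0 and 1. It rose by 4.87 ± 0.29 in WT (limma, adjusted p = 1.23e-12) and by 3.98 ± 0.29 in KO (limma, adjusted p = 5.80e-11). Adgre1, which encodes the macrophage protein F4/80, averaged 22.4 ± 9.74 and 17.1 ± 7.18, and Itgam, the CD11b integrin chain of myeloid cells, 14.7 ± 1.35 and 12.1 ± 4.00. Csf1r, the receptor for the macrophage growth factor, averaged 30.6 ± 5.20 and 19.8 ± 2.55, and Mrc1, the mannose receptor, 22.7 ± 4.32 and 24.5 ± 12.5. These 4 genes rose by 3.90 to 4.40 in WT and by 3.39 to 4.44 in KO.

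Other receptors of the group varied more in level. Ccr2, the chemokine receptor of incoming monocytes, stood at 1.55, 3.11, 5.09 and 2.90 in WT and at 3.97, 14.5, 5.36 and 4.45 in KO, with no read at day 0. Cd163, a scavenger receptor for haemoglobin, averaged 1.85 ± 1.24 in WT and 2.39 ± 2.15 in KO. Cd14, part of the lipopolysaccharide receptor, averaged 88.3 ± 29.6 and 61.4 ± 16.7, and rose by 5.55 ± 0.59 in WT (6.19 without WT day 0 replicate 1) and by 3.51 ± 0.59 in KO (2.77 without KO day 0 replicate 1). Cd36, a fatty acid and scavenger receptor, rose by 2.43 ± 0.73 in WT (limma, adjusted p = 0.00937), but its day 0 values of 50.0, 4.63, 8.66 and 0.0332 overlapped those of day 4, and the call was lost without replicate 4 of day 0 (1.49, adjusted p = 0.0557), with only the groups compared (adjusted p = 0.0650), with edgeR (adjusted p = 0.439) and with DESeq2 (adjusted p = 0.446), while the change was 3.36 without replicate 1. Msr1, the class A scavenger receptor, averaged 11.2 ± 3.43 in WT and 10.2 ± 6.41 in KO.

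Cd68, which encodes a glycoprotein of late endosomes and lysosomes, did not follow the others. It stood at 16.8, 31.5, 15.1 and 23.8 in WT and at 17.4, 22.7, 34.4 and 42.0 in KO at day 0. At day 1 it stood at 8.08, 5.71, 3.59 and 4.26 in WT and at 4.47, 4.58, 4.72 and 3.98 in KO. At day 4 it stood at 61.9, 49.2, 62.0 and 40.5 in WT and at 42.9, 44.6, 36.2 and 59.7 in KO. Each day 1 library stood below each day 0 library, and the day 4 libraries overlapped those of day 0 in KO but not in WT. Within 1 day Cd68 fell by 1.82 ± 0.30 in WT (limma, adjusted p = 1.62e-05) and by 2.39 ± 0.30 in KO (limma, adjusted p = 5.17e-07). From day 0 to day 4 it rose by 1.29 ± 0.30 in WT (limma, adjusted p = 0.00109), and the KO difference of 0.69 ± 0.30 was not called (limma, adjusted p = 0.0666), but was called without KO day 0 replicate 4 (adjusted p = 0.0255), with DESeq2 (adjusted p = 0.0332), with quantile normalization (adjusted p = 0.0220) and with a pseudocount of 5 (adjusted p = 0.0443).

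**Figure D3:**
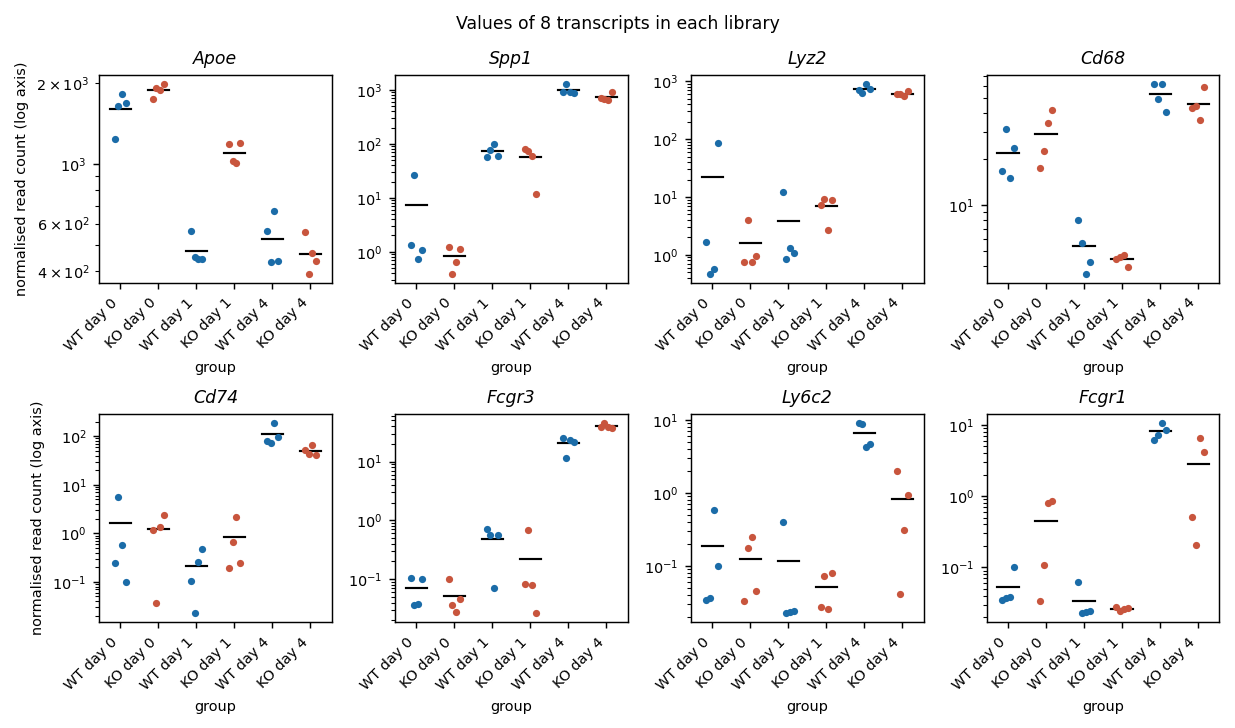
Normalised read counts (log axes, each with its own range) of 8 transcripts in each library, by group; points are libraries and lines are means of 4, with WT in blue and KO in red. Apoe is highest at day 0, Cd68 lowest at day 1, and the other 6 are highest at day 4.

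The intracellular genes rose as well, 7 of 8 in WT and 8 of 8 in KO from day 0 to day 4, beside 25.7% and 22.3% of the genes tested. Spi1 encodes PU.1, the transcription factor that directs macrophage development. It stood at 8.24, 5.26, 8.36 and 5.37 in WT and at 14.8, 8.75, 12.1 and 10.4 in KO at day 4, and at or below 0.478 in each library of days 0 and 1. Mpeg1, a pore-forming protein of phagosomes, averaged 62.6 ± 7.29 and 55.1 ± 9.83 in the WT and KO libraries of day 4, and Laptm5, a lysosomal membrane protein of blood cells, 56.7 ± 11.9 and 67.6 ± 19.7. Cybb, the membrane subunit of the phagocyte oxidase, averaged 43.0 ± 10.7 and 39.6 ± 5.27. Lcp1 and Coro1a, actin-binding proteins of leukocytes, averaged 27.1 ± 3.33 and 7.66 ± 3.92 in WT and 28.4 ± 10.5 and 6.43 ± 5.48 in KO.

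Promoter sequences were examined because most of these genes rose together and several are known targets of PU.1. RefSeq promoters (GRCm38.p6) matched 29 of the 39 genes, with 37 start sites. The motif GAGGAAG, a form of the purine-rich element that PU.1 binds, was searched on both strands in the 250 bases before each start. It was found before at least 1 start of 10 of the 29 genes (34.5%) and of 12% of the 27025 genes in the table. The 10 genes were C1qc, Fcgr1, Fcgr3, Itgam, Laptm5, Ly6c2, Mrc1, Pf4, Spp1 and Trem2. A match is a description of these letters and not of binding. The windows of 4 of them are printed 5′ to 3′ on the strand of the gene, with the motif in capitals (CTTCCTC where it lies on the other strand): Fcgr1 and Ly6c2 because they differed between genotypes at day 4, and Itgam and Trem2 as an identity marker and a receptor without such a difference. The windows are chr3:96293970-96294219 (minus strand), chr15:75111938-75112187 (minus), chr7:128062390-128062639 (plus) and chr17:48346151-48346400 (plus).
Fcgr1: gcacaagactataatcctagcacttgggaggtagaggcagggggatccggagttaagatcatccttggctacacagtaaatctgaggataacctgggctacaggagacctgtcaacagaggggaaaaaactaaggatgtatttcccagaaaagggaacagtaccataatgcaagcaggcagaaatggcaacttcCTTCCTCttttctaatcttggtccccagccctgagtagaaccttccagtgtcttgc
Ly6c2: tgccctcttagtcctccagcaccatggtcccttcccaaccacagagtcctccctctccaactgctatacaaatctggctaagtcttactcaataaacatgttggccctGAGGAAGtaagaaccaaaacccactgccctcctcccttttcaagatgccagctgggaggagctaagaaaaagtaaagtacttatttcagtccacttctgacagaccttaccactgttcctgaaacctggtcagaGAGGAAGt
Itgam: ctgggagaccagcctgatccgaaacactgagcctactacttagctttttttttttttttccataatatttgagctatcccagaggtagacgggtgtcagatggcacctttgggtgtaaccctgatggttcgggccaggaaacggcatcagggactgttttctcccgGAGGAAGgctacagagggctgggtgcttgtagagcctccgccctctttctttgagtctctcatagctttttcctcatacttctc
Trem2: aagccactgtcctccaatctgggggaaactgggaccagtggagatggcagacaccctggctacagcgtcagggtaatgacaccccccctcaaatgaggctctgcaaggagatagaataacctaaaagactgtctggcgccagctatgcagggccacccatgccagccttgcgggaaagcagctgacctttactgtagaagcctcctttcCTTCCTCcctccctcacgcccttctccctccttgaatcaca
The motif began 56 bases before the start of Fcgr1, 84 before that of Itgam and 41 before that of Trem2. The printed start of Ly6c2 had it at 142 and 8 bases before.

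At day 1 few of the transcripts differed from day 0 by limma. In WT 3 were higher (Spp1, Cx3cr1 and Pf4) and 2 lower (Cd68 and Apoe), against 27.7% and 24.9% of the genes tested. In KO 3 were higher (Spp1, Gpnmb and Pf4) and 2 lower (Cd68 and Apoe), against 24.2% and 21.5% of the genes tested. By limma these shares are below those of all genes. More were called on the recovered counts. In WT edgeR called 9 higher and 5 lower and DESeq2 8 and 7, and in KO they called 5 and 4 and 5 and 5. The shares of all genes called by these tools are not given here. Many of the 39 transcripts had few reads. At day 0, 23 of them in WT and 19 in KO had 10 counts or fewer in all, and at day 1, 9 and 14 did.

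Spp1 rose in both genotypes by limma and edgeR, and DESeq2 gave it no adjusted p. At day 1 it stood at 57.5, 78.1, 99.9 and 59.8 in WT and at 80.2, 74.7, 60.8 and 12 in KO, above each day 0 library of WT and KO except that KO replicate 4 lay below the 26.8 of WT day 0 replicate 2. It rose by 4.22 ± 0.60 in WT (limma, adjusted p = 2.55e-06; 5.16 without WT day 0 replicate 2) and by 4.70 ± 0.60 in KO (limma, adjusted p = 7.63e-07; 5.32 without KO day 1 replicate 4). Pf4 stood at 9.03, 5.57, 4.20 and 1.94 in WT and at 5.03, 1.85, 1.23 and 2.49 in KO. It rose by 2.24 ± 0.39 in WT (limma, adjusted p = 3.71e-05) and by 1.22 ± 0.39 in KO (limma, adjusted p = 0.013), where the KO call was lost without KO day 1 replicate 1 (0.94, adjusted p = 0.0653).

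Gpnmb and Cx3cr1 were each called by limma in 1 genotype at day 1. Gpnmb stood at 4.17, 5.85, 6.02 and 3.52 in WT and at 14.7, 14.7, 11.3 and 19 in KO at day 1, with the KO libraries above all WT libraries. It rose by 1.28 ± 0.50 from day 0 in KO (limma, adjusted p = 0.039), a call lost on leaving out any of 7 of the 8 libraries compared, KO day 1 replicate 3 being the exception (adjusted p between 0.0539 and 0.0929), and with edgeR and DESeq2 (adjusted p = 0.0861 and 0.0695). Cx3cr1, the fractalkine receptor of patrolling monocytes and resident macrophages, stood at 1.10, 2.23, 0.539 and 0.861 in WT at day 1 and had no read in the KO libraries, which allows a value of up to 0.194. It rose by 1.00 ± 0.41 in WT (limma, adjusted p = 0.0461), a call lost on leaving out any of 7 of the 8 libraries compared, WT day 1 replicate 3 being the exception (adjusted p between 0.0603 and 0.148). The genotype by day interaction from day 0 to day 1 was not called by limma for Gpnmb (adjusted p = 0.776) or Cx3cr1 (−1.57 ± 0.58, adjusted p = 0.0858), while edgeR and DESeq2 called it for Cx3cr1.

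Apoe, which encodes the apolipoprotein E of lipid transport, had a course unlike that of the other 38. It stood at 1238, 1642, 1825 and 1689 in WT and at 1748, 1917, 1890.1 and 1988 in KO at day 0. At day 1 it stood at 564, 452, 442 and 444 in WT and at 1184, 1026, 1006 and 1198 in KO. At day 4 it stood at 566, 432, 667 and 437 in WT and at 556, 391, 468 and 435 in KO. The genotypes overlapped at days 0 and 4, and at day 1 each KO library stood above each WT library.

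Within 1 day Apoe fell by 1.74 ± 0.14 in WT (limma, adjusted p = 2.27e-10) and by 0.78 ± 0.14 in KO (limma, adjusted p = 5.82e-05). The difference between these changes was 0.96 ± 0.19 (limma, adjusted p = 0.00163), with 7.48% of the genes tested called higher and 4.1% lower in this interaction, but was 0.47 (adjusted p = 0.168) under quantile normalization. From day 1 to day 4 the KO level fell by 1.26 ± 0.14 (limma, adjusted p = 4.54e-08), a direction that turned to 0.33 (adjusted p = 0.0700) under quantile normalization, and the WT level differed by 0.13 ± 0.14 (limma, adjusted p = 0.458), but by 1.26 (adjusted p = 1.48e-07) under that normalization. From day 0 to day 4 Apoe fell by 1.61 ± 0.14 in WT (limma, adjusted p = 9.58e-10) and by 2.04 ± 0.14 in KO (limma, adjusted p = 1.76e-11), and the WT call was lost under quantile normalization (−0.36, adjusted p = 0.0502). The interaction from day 1 to day 4 was −1.39 ± 0.19 (limma, adjusted p = 7.79e-05), with 0.759% of the genes tested higher and 3.21% lower, where Ly6c2 was the other transcript called, at −2.04 ± 0.42 (limma, adjusted p = 0.00407), a call lost with edgeR (−1.42) and DESeq2 (−1.04, adjusted p = 0.942 with both). Quantile normalization moved the median log2 change of all genes between day 0 and day 4 in WT from 0.23 to −0.02.

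Between genotypes at day 0, 0 of the 39 transcripts were higher and 0 lower by limma, where 4.82% of the genes tested were higher and 4.93% lower. At an unadjusted p under 0.05, 2 were higher and 2 lower. edgeR on the recovered counts called 0 higher and 2 lower, and DESeq2 3 higher and 3 lower. Cd36 had the lowest limma adjusted p. It stood at 50.0, 4.63, 8.66 and 0.0332 in WT and at 0.232, 3.61, 0.0276 and 0.0457 in KO, and the groups overlapped (log2 difference −2.22 ± 0.73, limma, adjusted p = 0.0565; called without WT day 0 replicate 4 or KO day 0 replicate 2, adjusted p = 0.00198 and 0.0207). Cd14 stood at 6.02, 0.0365, 0.269 and 0.233 in WT and at 0.166, 10.8, 5.77 and 7.81 in KO (log2 difference 1.54 ± 0.59, limma, adjusted p = 0.106; called without WT day 0 replicate 1 or KO day 0 replicate 1, adjusted p = 0.0119 and 0.00561).

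Between genotypes at day 1, Apoe was higher in KO by 1.22 ± 0.14 (limma, adjusted p = 1.11e-06), and it was the 1 transcript called, with 0 lower, where 7.12% of the genes tested were higher and 2.08% lower. Beside the 0 lower, 1 was lower at an unadjusted p under 0.05, 2 by edgeR and 3 by DESeq2. Cd14 stood at 3.05, 2.13, 1.01 and 1.45 in WT and at 10.9, 5.4, 6.75 and 13.9 in KO, with each KO library above each WT library, a separation that 13.9% of the genes tested had in this direction and 12.3% in the other. Its log2 difference of 1.79 ± 0.59 was not called (limma, adjusted p = 0.0621), nor was that of Gpnmb, at 1.44 ± 0.50 (limma, adjusted p = 0.0776). With the day 1 libraries alone in the limma model, the adjusted p was 0.00896 for Cd14 and 0.00412 for Gpnmb. Cx3cr1, without a read in KO, had a log2 difference of −1.03 ± 0.41 (limma, adjusted p = 0.145), and was called by edgeR (adjusted p = 0.0207) and DESeq2 (adjusted p = 0.00333).

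At day 4, 2 of the 39 transcripts were lower in KO than in WT, Ly6c2 and Fcgr1, and 0 were higher, where 0.524% of the genes tested were lower and 0.53% higher. Beside the 0 higher, 3 were higher at an unadjusted p under 0.05 and 0 by edgeR or DESeq2. Ly6c2, which encodes a surface protein of inflammatory monocytes, stood at 8.93, 8.63, 4.22 and 4.63 in WT and at 2.0, 0.0411, 0.307 and 0.941 in KO, so that each KO library lay below each WT library and KO replicate 2 had no read. The log2 difference was −2.12 ± 0.30 (limma, adjusted p = 0.000142), and it remained called on leaving out any 1 of the 8 day 4 libraries. It was lost with the groups compared alone (adjusted p = 0.0689), with edgeR (adjusted p = 0.817) and with DESeq2 (adjusted p = 0.691). The adjusted p over all settings lay between 1.80e-05 and 0.817. Ly6c1, a near-identical neighbour named here after its values were seen, averaged 39.5 ± 17 in WT and 17.7 ± 6.97 in KO (log2 difference −1.11 ± 0.96, limma, adjusted p = 0.858), and reads of the pair may be divided between them.

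Fcgr1 stood at 6.24, 7.20, 10.5 and 8.42 in WT and at 0.51, 0.205, 6.52 and 4.12 in KO at day 4. The groups overlapped, since KO replicate 3 lay above WT replicate 1, and KO replicates 1 and 2 were the low ones. The log2 difference was −1.63 ± 0.40 (limma, adjusted p = 0.0486). It was not called with a pseudocount of 0.5 (adjusted p = 0.0862), without the mean-variance trend (adjusted p = 0.0528) or with only the groups compared (adjusted p = 0.305). The call was lost on leaving out any of the 4 WT libraries or KO replicate 1 or 2 (adjusted p between 0.0712 and 0.181), and with edgeR and DESeq2 (adjusted p = 1 with both). The adjusted p over all settings lay between 0.0025 and 1. Both transcripts were also called in the interaction from day 0 to day 4, at −2.04 ± 0.57 for Fcgr1 (limma, adjusted p = 0.0427) and −2.06 ± 0.42 for Ly6c2 (limma, adjusted p = 0.00533), where 2.01% of the genes tested were higher and 1.98% lower. The Ly6c2 interaction remained called on leaving out any 1 library, but was lost with library weights (adjusted p = 0.0507), only the groups compared (adjusted p = 0.0609), edgeR (adjusted p = 0.640) and DESeq2 (adjusted p = 0.659). The Fcgr1 interaction was lost on leaving out any 1 of 12 of the 16 libraries (adjusted p between 0.0526 and 0.0903), all but KO day 0 replicates 1 and 2 and KO day 4 replicates 3 and 4, and with library weights, only the groups compared, edgeR and DESeq2 (adjusted p between 0.0655 and 0.198).

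With Ly6c2 and Fcgr1 counted, 31 of the 39 transcripts had a log2 difference below 0 at day 4, and the median was −0.32, against −0.03 for all genes. The median lay between −0.38 and −0.22 when each of the 8 libraries was left out in turn, with 31 to 34 transcripts below 0. In 8 transcripts each KO library lay below each WT library (Csf1r, Ptprc, Fcer1g, Ctss, Cd74, H2-Aa, H2-Ab1 and Ly6c2), which held for 3.86% of the genes tested, and in 2 above (Fcgr3 and Spi1), which held for 3.84%. All 5 genes of antigen presentation lay below 0, between −1.01 and −0.59, and none of them was called (limma, adjusted p between 0.573 and 0.716). Cd74 stood at 80.6, 72.8, 185 and 97.4 in WT and at 52.5, 42.1, 66.7 and 41.8 in KO, with no overlap and with WT replicate 3 far above the others.

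Fcgr3 and Spi1 had the opposite sign. Fcgr3, a lower-affinity IgG receptor, stood at 24.8, 11.7, 23.6 and 21.8 in WT and at 39.5, 44.8, 38.5 and 37.4 in KO, where each KO library lay above each WT library (log2 difference 0.98 ± 0.31, limma, adjusted p = 0.175). It was called with a pseudocount of 5 (adjusted p = 0.00986) or without the mean-variance trend (adjusted p = 0.0311), and so was the lower level of Ptprc (adjusted p = 0.0278 and 0.0275), which under the main settings was not called (−0.92 ± 0.29, limma, adjusted p = 0.177). Spi1 had a log2 difference of 0.68 ± 0.26 (limma, adjusted p = 0.333) and Ccr2 of 0.85 ± 0.31 (limma, adjusted p = 0.295).

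**Figure D4:**
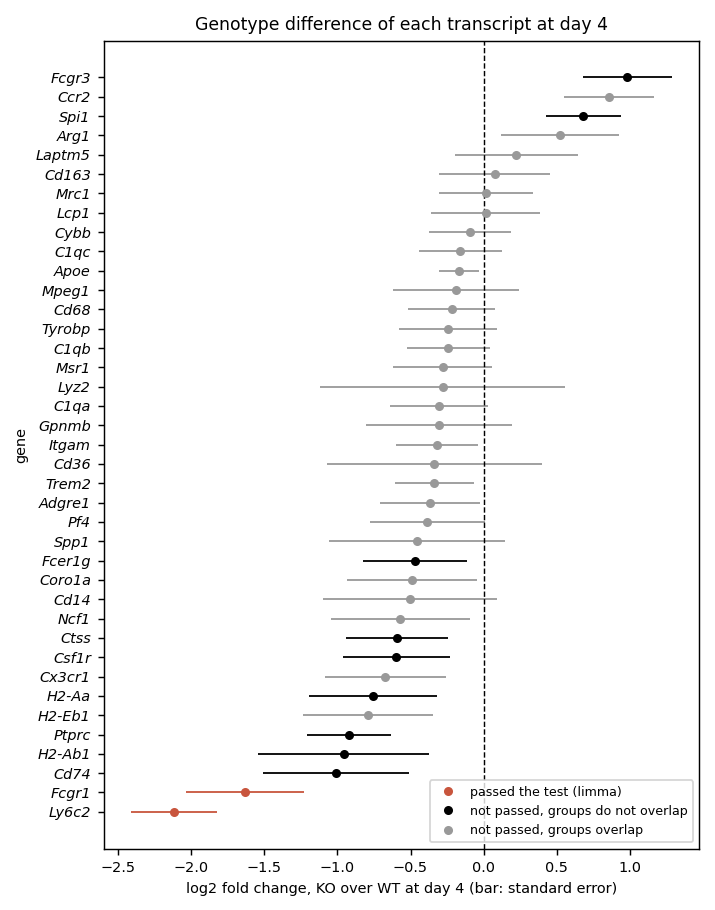
Log2 fold change of KO over WT at day 4 for each of the 39 transcripts, with the standard error of the limma model as bars (4 libraries per group). Ly6c2 and Fcgr1 (red) passed the test, 9 others had groups that do not overlap (black), and 31 of the 39 points lie below 0.

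In some groups 1 library was the highest for many transcripts. WT day 4 replicate 3 had the highest value of its group for 26 of the 39 transcripts, KO day 4 replicate 1 for 18, and WT day 1 replicate 1 for 23. Of the 10 transcripts with a mean of at least 1 in WT at day 1, that last library was highest for 6. Its summed level without Apoe was 114, below the 124 of WT day 1 replicate 3. KO day 4 replicate 1 reached 2835, near the 2787 of KO day 4 replicate 4. At day 4 the summed level without Apoe was 4076 in WT replicate 3 and between 3206 and 3522 in the other WT libraries, all above the 2835 of the highest KO library.

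Genes of other cell types were read beside these. Of 40 further pan-myeloid genes, 37 were higher at day 4 than at day 0 in WT and 37 in KO, where 25.7% and 22.3% of the genes tested were higher. How many of the 40 passed the filter only through day 4 libraries was not counted, so a rise may be built into some of these genes. The median log2 difference of the 40 between genotypes at day 4 was −0.27, against −0.03 for all genes. Limma called 0 of the 40 higher and 0 lower in KO at day 4, where 0.53% and 0.524% of the genes tested were called. Their summed level lay between 51.9 and 93.6 in WT and between 34.0 and 85.2 in KO at day 0, between 1208 and 1386 in WT at day 4, and between 1055 and 1127 in KO, so that the genotypes did not overlap at day 4. Lgals3, which encodes galectin-3, gave the largest part, with 710 in WT and 485 in KO at day 4 on average. It lay between 654 and 793 in WT and between 474 and 503 in KO, and the list was not summed without it. The 5 neutrophil markers analysed here summed to 27 to 48.2 in WT and 24 to 37.2 in KO at day 4, of which Cxcr2 made up most, and to 11.1 to 19.9 and 8.0 to 20.1 at day 0. In both genotypes limma called 3 of the 5 higher at day 4 than at day 0: Cxcr2, with means of 13.8 at day 0 and 29.6 at day 4 in WT and 9.56 and 22.6 in KO, and Il1r2 and Mmp9, at 2.88 and 2.79 in WT and 3.16 and 1.32 in KO at day 4. S100a8, at 1.10 and 1.02, was not called. The 2 T and NK cell markers summed to 3.10 to 8.55 and 3.28 to 11.6 at day 4.

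Other lists are given in the same way. The 4 B cell markers analysed summed to 3.50 to 7.58 in WT and 2.53 to 7.46 in KO at day 4, the 3 platelet markers to 4.38 to 7.20 and 8.42 to 15, the 5 dendritic cell markers to 14.7 to 18.9 and 9.93 to 18.5, and Alas2 of red cells to 0.431 to 1.01 and 0.275 to 1.72. The 7 endothelial markers summed to 141 to 273 in WT at day 0 and to 9.22 to 18.3 at day 4, and in KO to 84.8 to 182 and 14 to 24.6. Most of the day 0 sum was Tek, with a mean of 201 in WT and 124 in KO. Without it the other markers summed to 0.798 to 53.4 at day 0 and 4.08 to 6.49 at day 4 in WT, and to 2.39 to 16.7 and 9.86 to 18.2 in KO, so that the days overlapped. The 9 markers of fibro-adipogenic progenitors summed to 442 to 793 in WT and 370.0 to 1357 in KO at day 4. Of 22 genes for the uptake of dead cells, 6 were higher and 6 lower at day 4 than at day 0 in WT, and 1 was higher and 9 lower in KO, beside the shares of all genes tested given for these contrasts above (25.7% and 18.9% in WT, 22.3% and 18.2% in KO). No gene of the 22 was called by limma in the interaction from day 0 to day 4, so a difference between genotypes in that change was not shown. In the interaction from day 0 to day 1, 3 were higher and 3 lower, and from day 1 to day 4, 0 and 2. Between genotypes, 1 was higher and 1 lower in KO at day 0, 3 and 0 at day 1, and 0 and 0 at day 4. The shares of all genes tested in these contrasts are given above. In the lists for neutrophils, T and NK cells and B cells, 10, 12 and 5 genes had no row under their symbol among the 17111 genes. The same held for 5 dendritic cell, 3 platelet, 4 red cell and 3 endothelial markers. The sums of these lists rest only on the markers that had a row. The part of these cells in the results above was not tested.

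**Figure D5:**
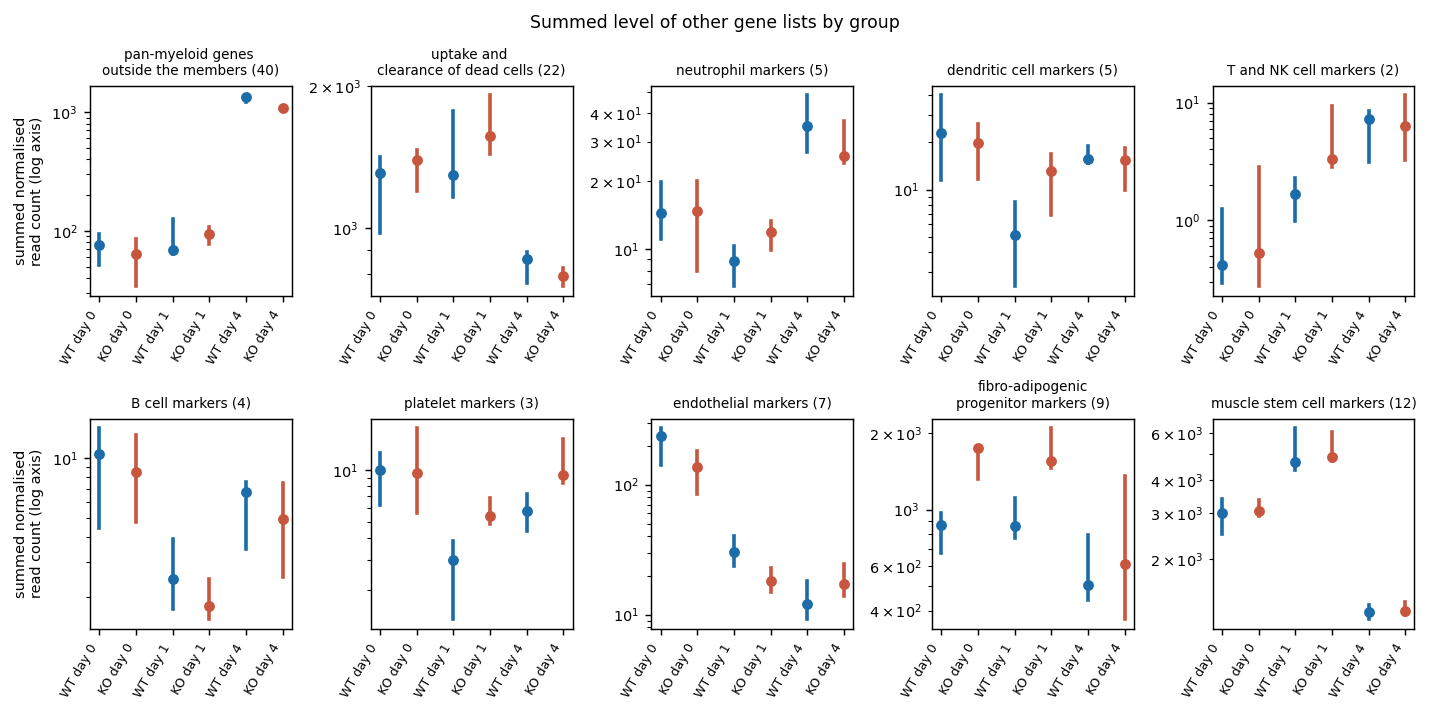
Summed normalised read count (log axes, each with its own range) of other gene lists in each group, with the number of genes analysed in brackets; points are medians of 4 libraries and bars run from the lowest to the highest library, with WT in blue and KO in red. The pan-myeloid list is at least 1055 in each day 4 library and at most 126 in each library of days 0 and 1.

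Levels can be compared between genes only per length of transcript. Per kb of exon (GENCODE M21), the highest mean levels at day 4 in WT were those of Spp1 (616), Lyz2 (567), Apoe (246), Ctss (210.1), Pf4 (177), Tyrobp (157) and Fcer1g (156), and the lowest those of Cd163 (0.338), Ccr2 (0.468) and Cx3cr1 (0.591). In KO the levels per kb were 447 for Spp1, 464 for Lyz2, 216 for Apoe and 138 for Ctss. At day 0 Apoe stood at 748 per kb in WT and 882 in KO, and the next highest were Cd68 (17.3) and Lyz2 (17) in WT and Cd68 (23.2) in KO. The means of Lyz2 in WT at day 0 rest on replicate 4, which held 86.5 of normalised reads against at most 1.69 in the others.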

How the data were processed

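Muscle stem cell RNA was sequenced in 24 libraries, 6 groups of 4, grouped by the genotype and day in the labels. Per the submitters' processing notes, FastQC, STAR, RSEM and limma were used with build mm39; versions, strand and settings are not given in the sources used here. The authors deposited 1 table of normalised signal, which came out in whole reads for 100% of values within 0.02 of a whole read after undoing the scaling, so depth and counts were recovered. A gene entered the test when 4 or more libraries reached a value of 1 (16985 did, 126 did not).

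The main test was limma 3.58.1 (R 4.3.3) on log2(value + 1) with a mean-variance trend, 6 group means over 24 libraries, 12 contrasts, two-sided, with Benjamini-Hochberg adjusted p under 0.05. It was tested first on simulated data for KO against WT at day 4. Only genes well above the filter limit were changed there, so calls for transcripts with few reads were not checked. Alternatives were the recovered counts in DESeq2 1.42.0 and edgeR 4.0.16, other filters, pseudocounts, scalings and weights, and each library left out.

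The 39 members and the gene lists were chosen with earlier results of these data known. Named genes were all members, Lamp2 and the most abundant genes of the other lists. Exon lengths came from GENCODE M21 and promoters from RefSeq (GRCm38.p6). Intervals and limits cover counting error only. Python 3.11.15 with pandas 2.3.3, numpy 2.4.6 and matplotlib 3.10.9 was used for summaries and plots.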

Additional observations from a re-analysis of the deposited data

Results flagged for a closer look

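Of 117 groups of 4 libraries with a mean of at least 1, 18 held a library far from the other 3, by the ratio of its gap to the range of the group. The limit set for this ratio flags about 1 in 20 groups by chance only if the values follow a normal distribution. Several groups were skewed and held libraries without a read, so the chance rate here is not known. The flags are a description and not a test. At day 0 in WT, Lyz2 stood at 86.5 in replicate 4 against 0.474 to 1.69 in the others, and Cd14 at 6.02 in replicate 1 against 0.0365 to 0.269. Replicate 2 stood apart in the same group for 3 transcripts: Spp1 (26.8 against 0.731 to 1.34), Cd74 (5.58 against 0.0997 to 0.577) and H2-Ab1 (8.28 against 0.0332 to 0.115). Gpnmb stood at 16.7 in WT day 0 replicate 3 against 0.328 to 1.83. At day 0 in KO, Lyz2 stood at 3.97 in replicate 2 against 0.745 to 0.959, and Mpeg1 at 4.83 in replicate 3 against 0.0332 to 0.107.

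At day 1, WT replicate 1 stood apart for Lyz2 (11.98 against 0.849 to 1.29) and for Apoe (564 against 442 to 452). At day 4 in WT, replicate 3 stood apart for Cd163 (3.71 against 1.18 to 1.29), H2-Ab1 (149 against 54.6 to 64.7) and H2-Eb1 (73.9 against 29.5 to 35.5). Spp1 stood at 1292 in WT day 4 replicate 2 against 895 to 937, and Lcp1 at 32.02 in WT day 4 replicate 1 against 24.9 to 25.7. At day 4 in KO, C1qa stood at 35.5 in replicate 1 against 17.9 to 19.3, Ccr2 at 14.5 in replicate 2 against 3.97 to 5.36, and Spp1 at 911 in replicate 4 against 653 to 696.

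The effect of genotype differed between days for 3 transcripts by the limma interaction. For Apoe the difference was 0.96 between days 0 and 1 (adjusted p = 0.00163) and −1.39 between days 1 and 4 (adjusted p = 7.79e-05). For Ly6c2 it was −2.06 between days 0 and 4 (adjusted p = 0.00533) and −2.04 between days 1 and 4 (adjusted p = 0.00407). For Fcgr1 it was −2.04 between days 0 and 4 (adjusted p = 0.0427). The Apoe call between days 0 and 1 was lost under quantile normalization (limma, adjusted p = 0.168). The Ly6c2 and Fcgr1 calls were lost with edgeR and DESeq2, and that of Fcgr1 also on leaving out most single libraries.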

How the results depend on the processing

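Counts of members called are given as higher and lower, with the limma value first. The share of all genes called is given for the main limma fit only. Counts under other settings therefore cannot be set against all genes. For WT day 1 against day 0 (3 and 2) there were 6 higher with only the groups compared, 9 and 5 with edgeR, and 8 and 7 with DESeq2. For KO day 1 against day 0 (3 and 2) there were 5 and 4 with edgeR and 5 and 5 with DESeq2. With quantile normalization 0 were lower in place of 1 for WT day 4 against day 0 and for KO day 4 against day 1, where Apoe turned from −1.26 to 0.33; the cause was not tested. Between genotypes at day 0 (0 and 0) the lower count was 1 with the filter of at least 5 in at least 8 libraries and 2 with edgeR, and DESeq2 had 3 and 3. At day 1 (1 and 0) there were 2 higher with that filter, 3 with a pseudocount of 5, 4 and 2 with library weights, 3 and 2 with only the groups compared, and 2 lower with edgeR and 3 with DESeq2. At day 4 (0 and 2) there was 1 higher with a pseudocount of 5 or no mean-variance trend, 1 lower with a pseudocount of 0.5, and 0 lower with the stricter filter (which leaves Ly6c2 and Fcgr1 untested), with only the groups compared, with edgeR and with DESeq2. Without the trend the 2 lower were Ptprc and Ly6c2, and a pseudocount of 5 gave 3 lower.

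For the interaction from day 0 to day 1 (1 and 0) there were 0 higher with quantile normalization, 1 lower with edgeR, and 2 and 4 with DESeq2. From day 0 to day 4 (0 and 2) there were 0 lower with the stricter filter, library weights, only the groups compared or edgeR, and 1 with DESeq2, which was H2-Aa. From day 1 to day 4 (0 and 2) there was 1 higher with a pseudocount of 5, no trend or library weights, and the lower count was 1 with the stricter filter, edgeR or DESeq2, 5 with library weights and 4 with only the groups compared. The unfiltered table gave the same counts as the main filter.

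Leaving out 1 library at a time, the higher counts ran from 2 to 3 (WT day 1 against day 0), 37 to 38 (WT day 4 against day 0), 36 to 36 (WT day 4 against day 1), 1 to 3 (KO day 1 against day 0), 34 to 36 (KO day 4 against day 0) and 35 to 38 (KO day 4 against day 1). The lower counts ran from 2 to 4 for WT day 1 against day 0, and were 2 for KO day 1 against day 0, 1 for both genotypes at day 4 against day 0 and for KO day 4 against day 1, and 0 for WT day 4 against day 1. Between genotypes they ran from 0 to 1 in both directions at day 0, were 1 higher and 0 lower at day 1, and ran from 1 to 2 lower with 0 higher at day 4. The interactions had 1 and 0 (day 0 to day 1), 0 and 1 to 3 (day 0 to day 4) and 0 and 2 to 3 (day 1 to day 4).

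The median summed level, in the order WT and KO at day 0, at day 1 and at day 4, was 54.4, 53.6, 27.5, 41.7, 1699 and 1382 without Apoe, Spp1 and Lyz2, and 1318, 1552, 489, 764, 6432 and 5069 after quantile normalization. As a mean log2 value it was 0.90, 0.88, 0.93, 1.07, 5.08 and 4.84. Without Apoe, an alternative chosen after seeing the data, it was 84.7, 56.5, 113, 112, 3486 and 2710.0. Leaving out 1 library it ran from 1724 to 1813, 1951 to 1969, 564 to 566, 1148 to 1263, 3953 to 4016 and 3100.3 to 3222.

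Replicate numbers are shared by the groups, but same-numbered libraries showed little shared deviation (median correlation 0.0036, over 0.1 in 1 of 60 pairs, and 9 of 24 libraries closest to their own number). The highest correlation was 0.27, and this check cannot exclude a shared origin of single pairs. With the replicate block, the counts of members called did not move, with 2 lower and 0 higher in KO against WT at day 4.

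Low depth of these transcripts at days 0 and 1 limits comparisons there: a transcript with no read may have had a value of up to 0.32. Limma pools the spread over all groups.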
